A study of Homo sapiens with 3 samples.

Results

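Pyruvate dehydrogenase is the mitochondrial enzyme complex that turns pyruvate into acetyl-CoA, and its entry into the citric acid cycle is set by reversible phosphorylation. The 4 pyruvate dehydrogenase kinases PDK1, PDK2, PDK3 and PDK4 phosphorylate the E1 component and switch the complex off, and the phosphatases PDP1 and PDP2 remove the phosphates and switch it on. PDHA1 encodes the E1 alpha subunit that carries the phosphorylated sites, and PDHB the E1 beta subunit. In tumour cells PDK1 is known as a gene whose activity diverts pyruvate towards lactate.

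The RNA-binding sites listed for these 8 genes were examined among 58998 RefSeq genes placed on the chromosomes. The genes were picked by measured values of these same libraries in the case of PDP1, for its many RPL22L1 and absent RPL22 summits, and the others were added as its functional partners. The numbers of summits given for PDP1 are therefore a description and no test of a difference. HCT116 cells, an established line from a colorectal carcinoma, carried RPL22-HaloTag, RPL22L1-HaloTag or HaloTag alone, with 1 library in each group. RPL22 belongs to the large subunit of the ribosome, RPL22L1 is its paralog, and the HaloTag is a protein tag that bonds covalently to a ligand on beads. GoldCLIP uses that bond to recover RNA crosslinked to the tagged protein. The cells grew in McCoy's 5A medium with serum, and how the fusions were expressed is not given in the sources used here. HaloTag alone was not analysed here, and no background from that library stands beside any number.

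The RPL22-HaloTag list held 154000 peaks and the RPL22L1-HaloTag list 254413. The list with more peaks was cut to its 154000 highest scores where numbers per gene are set against each other, and this is called the list of equal size. A peak of exactly 30 bases with its summit at base 15 from its start is called flat. Flat peaks made up 64.9% of the RPL22-HaloTag list and 77.9% of the RPL22L1-HaloTag list. Scores are the authors' own and were ranked only within a list, with rank 1 the highest. The median score was 33 in the RPL22-HaloTag list and 124 in the other. Depth is unknown, no replicate exists and RNA abundance was not measured, so no test between groups was run. The part that abundance or depth has in any number below was not tested.

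PDP1, the phosphatase that responds to calcium, was picked for its summit numbers, so its contrast with its partners was set by the choice. Its gene on chromosome 8 spans GRCh38 positions 93916923 to 93926068, or 9146 bases. It held 20 RPL22L1-HaloTag summits and 0 RPL22-HaloTag summits. Of the 20 peaks, 19 were not flat, and 16 had a score at or above the median of their list. Their scores ran from 25 over a median of 216 to 1946. The list of equal size kept 18 of the 20, all of them not flat. With 18 against 0 summits, and 1 added to each, the log2 ratio towards RPL22L1-HaloTag was 4.25.

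The 20 peaks of PDP1 crowded towards the upper bound of the gene. Only 5 summits lay below the midpoint of the gene bounds and 15 above it. From 6211 to 9115 bases above the lower bound there were 14. The longest stretch without a summit measured 2097 bases, from 93920100 to 93922197, and the median distance between neighbours was 221 bases. Peak widths ran from 30 to 135 bases with a median of 49.5, and 3 peaks spanned at least 100 bases. Together the peaks covered 1162 bases, or 12.7% of the gene.

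The strongest PDP1 peak lay at 93925332 to 93925362, with a score of 1946 that ranked 737, in the highest 0.290% of its list. The next had a score of 1411 and rank 1120 and lay at 93923578 to 93923692. Both sit in the crowded upper stretch. Another site there, at 93924147 to 93924196, scored 684 with rank 4726. The widest peak, at 93923097 to 93923231, scored 355. Below the longest gap the highest score was 196, for the peak at 93918715 to 93918771. The only flat peak, at 93919800 to 93919829, also had the lowest score, 25. At the very end of the gene, peaks at 93925654 to 93925703, 93925927 to 93925957 and 93926017 to 93926060 scored 495, 343 and 171, and the last of these summits lay 30 bases inside the upper bound given above. The first peak above the longest gap, at 93922152 to 93922214, scored 404. Thus 7 of the 20 peaks ranked in the top 10% of the list and 2 in the top 1%. Exons, introns and UTRs of the gene were not used here, so the peaks cannot be placed within its transcript.

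**Figure D1:**
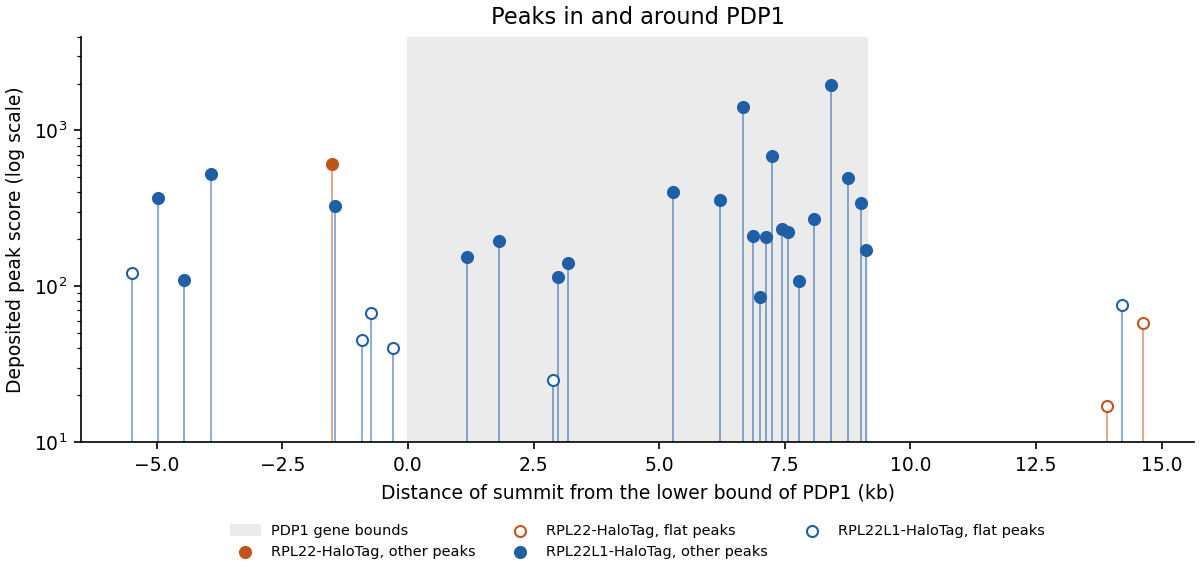
Summits in and around PDP1, by distance from the lower bound of the gene (kb, horizontal axis) and deposited score (log axis). The grey area marks the gene bounds, colours mark the 2 lists and open circles mark flat peaks. All 20 summits within the bounds are from the RPL22L1-HaloTag list. An RPL22-HaloTag peak with a score of 611 lies 1498 bases below the gene. Scores of both lists are on separate scales.

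RPL22-HaloTag peaks were present close to the gene, though not in it. The nearest below lay at 93915379 to 93915424, 1498 bases from the lower bound, outside any RefSeq gene. It scored 611 and ranked 1199, in the highest 0.779% of the RPL22-HaloTag list, and it was not flat. An RPL22L1-HaloTag peak with a score of 328 lay beside it at 93915446 to 93915477, with 21 bases between. The nearest RPL22-HaloTag peak above the gene was flat, had a score of 17 and lay 4761 bases from the upper bound. Within 100000 bases below PDP1 the lists held 27 RPL22-HaloTag and 94 RPL22L1-HaloTag summits, and within the same distance above it 8 and 14. The region therefore was not empty of RPL22-HaloTag peaks. Of the 2 neighbouring genes on each side, MIR378D2HG, a long non-coding host gene, held 0 and 3 summits, all flat, and the microRNA gene MIR378D2 inside it held 0 and 0. The pseudogene PSMA2P2 above held 0 and 1, and the pseudogene RPL34P18 held 0 and 0.

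Few genes had as many RPL22L1-HaloTag summits and no RPL22-HaloTag summit. Of 3953 genes with at least 20 RPL22L1-HaloTag summits, PDP1 and 1 other had no RPL22-HaloTag summit, 2 in all or 0.0506%. The other was NPM1, the nucleolar protein nucleophosmin, with 32. PDP1 was picked for this contrast, and the limit of 20 equals its own number. The share therefore describes the pick and lends it no support. Among protein-coding genes without an RPL22-HaloTag summit the most RPL22L1-HaloTag summits were held by NPM1 with 32, PDP1 with 20, FTSJ3 and HSPD1 with 14 each, and GINM1 with 13, a number that LRIG3 shared. FTSJ3 is an RNA methyltransferase of ribosome assembly and HSPD1 a mitochondrial chaperonin. With at least 10 RPL22L1-HaloTag summits required, 18 of 6518 protein-coding genes had no RPL22-HaloTag summit, or 0.276%.

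A likeness was also measured over 4 numbers per gene, the flat and the other summits of each list, as a Euclidean distance of log2 values plus 1. It covered 2 libraries only. The nearest protein-coding gene to PDP1 was HSPD1 at a distance of 0.853, with 2 flat and 12 other RPL22L1-HaloTag summits. HMGN1, a nucleosome-binding protein, followed at 0.862 with 1 flat and 10 others, and HNRNPA1, a splicing regulator, with 1 and 9. All 3 had 0 RPL22-HaloTag summits. PHLDA1 at 1.37 and the initiation factor EIF5 at 1.53 came next, each with 1 RPL22-HaloTag summit. PDP1 held more RPL22L1-HaloTag summits than any of these 5.

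Per length, PDP1 held 2.19 RPL22L1-HaloTag summits per kb. That was more than 99.1% of the 13972 protein-coding genes with a summit in that list, whose median was 0.298 per kb. The share of its peaks that were not flat was 95%, above 99.8% of the 6518 protein-coding genes with at least 10 summits, whose median was 21.9%. Only 11 of those genes, PDP1 among them, had a share of 95% or more. Among the genes with counts like those of PDP1, DDX5 and EEF1A1 each held 12 RPL22L1-HaloTag summits, 0 of them flat. EEF1A1 has 5283 bases, and ZBED5 held 15 summits in 5348 bases, against 20 in 9146 for PDP1. These 3 genes each held 1 RPL22-HaloTag summit. The positions of PDP1 describe how it was picked and lend no support to the pick.

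**Figure D2:**
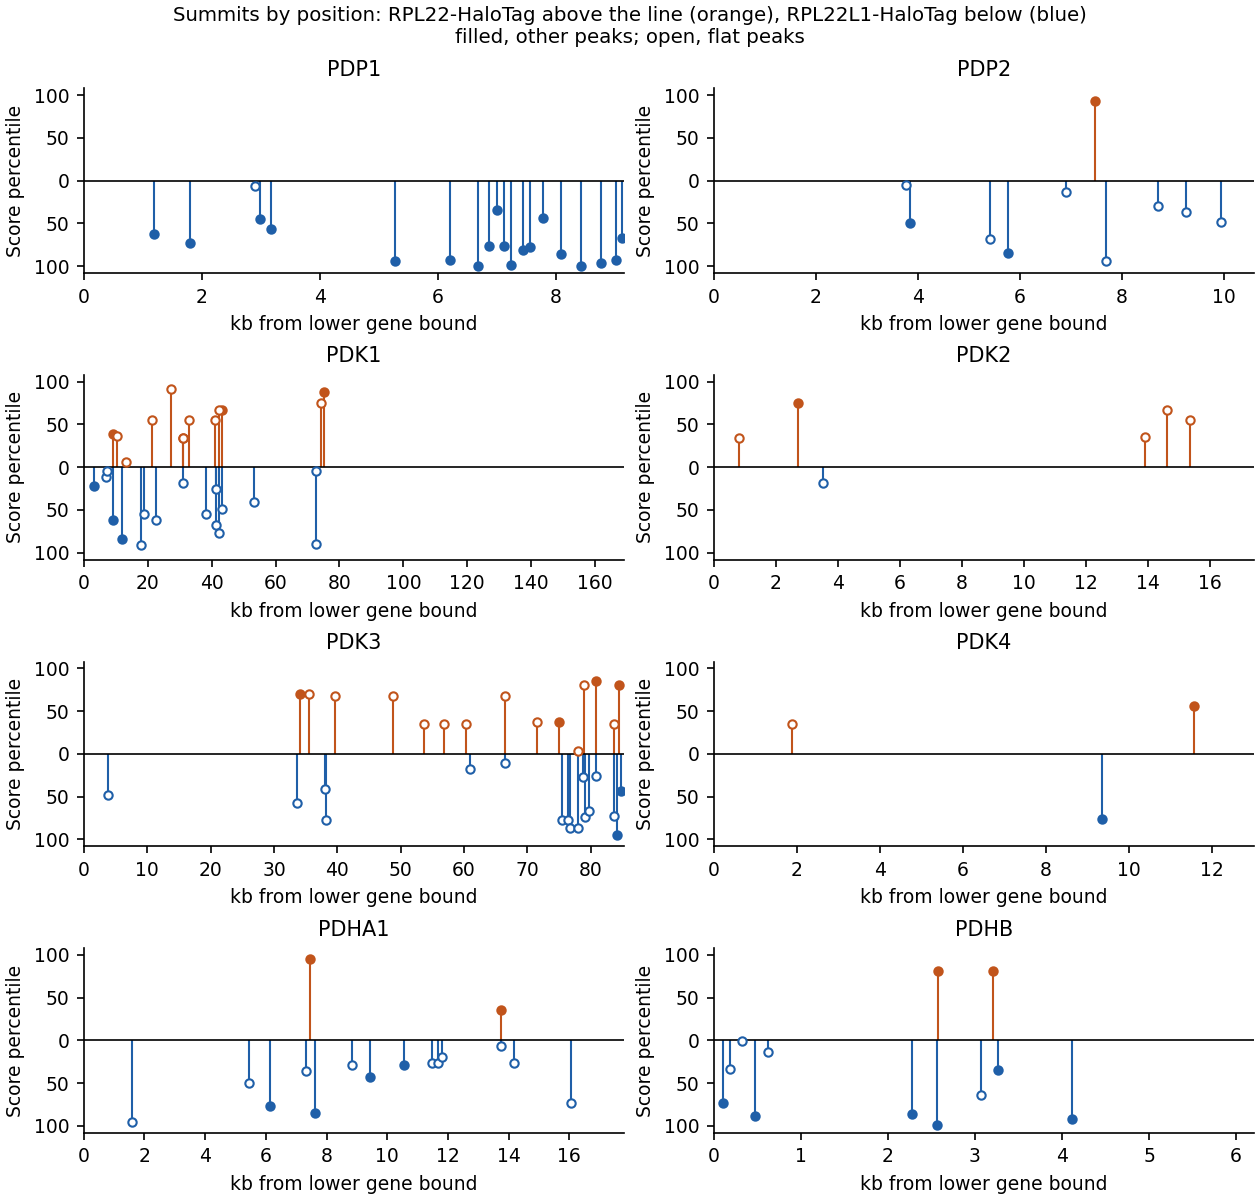
Summits of the 8 genes by position (kb from the lower bound of each gene, horizontal axis) and by percentile of the score within its own list (vertical axis, 100 is the highest score). RPL22-HaloTag is drawn above the line and RPL22L1-HaloTag below it, and open circles are flat peaks. PDP1 has no summit above its line, PDK1 has none in the last 93.8 kb of its bounds, and in PDK3 many RPL22L1-HaloTag summits sit near the upper end.

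PDP2 encodes the second phosphatase, which lacks the calcium response of PDP1. Its gene on chromosome 16 (66880515 to 66891101) has 10587 bases, close to the length of PDP1, and held 1 RPL22-HaloTag and 9 RPL22L1-HaloTag summits. The RPL22-HaloTag peak at 66887983 to 66888015 was not flat and had a score of 162 with rank 10209. The nearest RPL22L1-HaloTag peak, at 66888193 to 66888222, was the strongest of that list in the gene, with a score of 381 and rank 16091, and 177 bases lay between them. The widest RPL22L1-HaloTag peak of PDP2, at 66886230 to 66886292, scored 255. In contrast to PDP1, 7 of the 9 RPL22L1-HaloTag peaks were flat, and 3 of the 9 reached the median score of their list. In the list of equal size 5 remained, and the log2 ratio was 1.58. With fewer than 10 summits in both lists together the gene was below the minimum for a call. Per length PDP2 held 0.850 RPL22L1-HaloTag summits per kb, against 2.19 for PDP1.

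The kinase genes together had 35 RPL22-HaloTag and 36 RPL22L1-HaloTag summits, and 23 of the latter in the list of equal size. Most were flat, 26 of 35 and 30 of 36. PDK1, on chromosome 2 (172555373 to 172724312), is a target of hypoxia signalling. It held 13 RPL22-HaloTag summits with scores from 20 to 134 and 17 RPL22L1-HaloTag summits with scores from 19 to 323. None of these 30 peaks overlapped a peak of the other list, beside 17.4% of all RPL22-HaloTag and 10.6% of all RPL22L1-HaloTag peaks. Flat peaks made up 10 of the 13 and 14 of the 17, and over all flat peaks 5.59% and 6.23% overlapped. With so few peaks nothing is read from the absence. The closest peaks of the 2 lists in PDK1 were 91 bases apart, and the median distance from an RPL22-HaloTag peak to the nearest RPL22L1-HaloTag peak was 1108 bases. All PDK1 summits lay in the lower part of the gene bounds, at or below 172630511, and the 93.8 kb above that position held no summit of either list. The strongest peaks, with scores of 134 and 323, were both flat. The log2 ratio was -0.35 in lists of equal size and turned to 0.36 in the whole lists.

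PDK3, on chromosome X (24465286 to 24550466), is the kinase known to be least held back by pyruvate. It held 15 RPL22-HaloTag summits with scores from 16 to 87 and 17 RPL22L1-HaloTag summits with scores from 34 to 428. Among the kinase genes it alone held overlapping peaks, 3 of 15 and 3 of 17, and all 6 of these were flat. Over all flat peaks 5.59% and 6.23% overlapped, and nothing is read from numbers this small. The pair with the nearest summits lay at 24548952 to 24548981 and 24548954 to 24548983, with an RPL22-HaloTag score of 21 and an RPL22L1-HaloTag score of 187. A further RPL22-HaloTag peak at 24544256 to 24544285 lay 1 base from an RPL22L1-HaloTag peak. The first RPL22-HaloTag summit was 34.2 kb above the lower bound. In the last 20% of the bounds there were 7 of 15 RPL22-HaloTag and 11 of 17 RPL22L1-HaloTag summits. The strongest RPL22L1-HaloTag peak of the gene lay there at 24549289 to 24549370, was 82 bases wide and had rank 11920. The log2 ratio was -0.30 in lists of equal size and turned to 0.17 in the whole lists.

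PDK2, on chromosome 17 (50094737 to 50112152), held more RPL22-HaloTag than RPL22L1-HaloTag summits in the whole lists, as PDK4 also did. It had 5 against 1, and the numbers were too small for a call. The RPL22-HaloTag scores were 21, 58, 24, 46 and 34. The RPL22L1-HaloTag peak was flat with a score of 49, and in the list of equal size it was absent. Its summit lay also within the bounds of PDK2-AS1. The RPL22-HaloTag summit with a score of 34 lay also within those of SAMD14. Windows around RefSeq start sites, meaning 250 bases before to 50 after a transcript start, were given for 7 of the 8 genes. PDP1 had none, so its peaks could not be checked against a start site. Among the peaks of the 7 genes, PDK2 held the 1 that lay whole within such a window. The sequence of the windows is that of RefSeq on GRCh38.p14. This flat peak of the RPL22-HaloTag list is shown because it is the sole peak of a regulator that could be read from these windows. It lay at chr17:50095520-50095549, and its summit was 160 bases before the start site of its window and 798 bases above the lower bound of the gene. On the strand of PDK2, with the summit base in capitals, it reads as follows.
PDK2, RPL22-HaloTag: tccccgctgtccatgAagcagtttctggac
Of its 30 bases, 17 were G or C. For comparison the list of partner genes gave a flat RPL22L1-HaloTag peak with a score of 224 in a window of PDHX, the subunit that anchors E3 in the complex. It lay at chr11:34916242-34916271, where the bounds of APIP overlap, and held 18 G or C bases.
PDHX, RPL22L1-HaloTag: tccgggaacaacagtCtccctcccgagcat
Neither of the peaks shown overlapped a peak of the other list, and the lists give no strand. Windows of the partner genes LIAS, MDH2, HIF1A and SLC16A3 also held peaks, which are not shown. In the LIAS window an RPL22-HaloTag peak with a score of 72 and an RPL22L1-HaloTag peak with a score of 321 did overlap. Both were not flat and lay within the bounds of RPL9.

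PDK4, on chromosome 7 (95583499 to 95596516), the kinase induced by fasting, held 2 RPL22-HaloTag summits with scores of 21 and 33 and 1 RPL22L1-HaloTag summit with a score of 205. The RPL22L1-HaloTag peak was 69 bases wide and not flat. It lay 2182 bases from the nearest RPL22-HaloTag peak. PDK4 thus held the fewest summits of the 8 genes over both lists, 3 in all.

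The E1 genes held more RPL22L1-HaloTag than RPL22-HaloTag summits. PDHA1, on chromosome X (19343927 to 19361718), had 2 and 14, and 6 of the 14 were in the list of equal size. The stronger RPL22-HaloTag peak, at 19351345 to 19351417 with a score of 199 and rank 7342, was the highest-ranked RPL22-HaloTag peak of all 8 genes. It lay between 2 RPL22L1-HaloTag peaks without touching either, the closer of which was 68 bases away. The weaker one, at 19357659 to 19357715 with a score of 24, overlapped a flat RPL22L1-HaloTag peak with a score of 26. Of the RPL22L1-HaloTag peaks beside the stronger one, the peak at 19351539 to 19351607 scored 258 and was 69 bases wide, and the closer peak, at 19351247 to 19351276, scored 89 and was flat. The strongest RPL22L1-HaloTag peak, at 19345508 to 19345537 with a score of 412, was flat. The gene overlaps MAP3K15, and no summit lay in the shared stretch.

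PDHB, on chromosome 3 (58427630 to 58433832), is the shortest of the 8 genes with 6203 bases. It held 2 RPL22-HaloTag and 10 RPL22L1-HaloTag summits, and both RPL22-HaloTag peaks overlapped RPL22L1-HaloTag peaks. Neither of the 2 was flat, and of all RPL22-HaloTag peaks that were not flat 39.2% overlapped. At 58430171 to 58430226 the RPL22-HaloTag score was 72 and rank 29389. The RPL22L1-HaloTag peak over it, at 58430134 to 58430223, scored 832 with rank 3196, in the highest 1.26% of its list. The summits of this pair were at 58430200 and 58430195. The other pair, at 58430820 to 58430895 and 58430888 to 58430953, scored 76 and 87. RPL22L1-HaloTag peaks without an RPL22-HaloTag partner included those at 58431742 to 58431771 with a score of 324, at 58428071 to 58428128 with 298 and at 58429860 to 58429926 with 264. Of the 10 RPL22L1-HaloTag peaks 6 were not flat, and the gene held 1.61 summits per kb, second to PDP1 among the 8. That was more than 97.5% of the 13972 protein-coding genes with a summit in that list. Its share of peaks that were not flat, 60%, was above 96.7% of the 6518 protein-coding genes with at least 10 summits. Both E1 genes had a log2 ratio of 1.22 in lists of equal size, from 2 against 6 summits, below the minimum of 10 for a call.

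Read over all 8 genes, 7 held an RPL22-HaloTag summit and 8 an RPL22L1-HaloTag summit. In lists of equal size 4 held more RPL22L1-HaloTag summits and 4 more RPL22-HaloTag summits, while in the whole lists 6 held more RPL22L1-HaloTag summits. Without PDP1 the totals were 40 RPL22-HaloTag and 69 RPL22L1-HaloTag summits in the whole lists, and 40 and 40 in lists of equal size. In lists of equal size 3 of the 8, PDP1, PDK1 and PDK3, reached 10 summits over both. Of these, 1 had a log2 ratio above 1, PDP1, and 0 had one below -1. Among all 8620 genes with at least 10 summits, 6.37% had a ratio above 1 and 8.75% one below -1, with a median of 0. Since the choice of PDP1 used this contrast, nothing is read from its count.

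**Figure D3:**
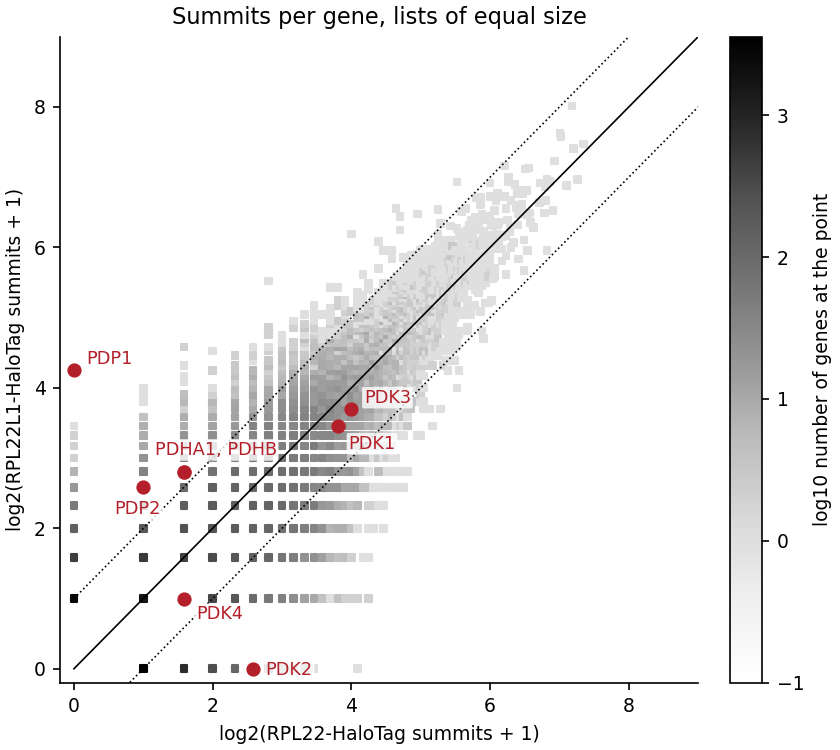
Summits per gene in lists of equal size, as log2 of the number plus 1 for RPL22-HaloTag (horizontal axis) and RPL22L1-HaloTag (vertical axis). Grey squares are all RefSeq genes with a summit, darker where more genes share a point. The solid line marks equal numbers and the dotted lines log2 ratios of 1 and -1. PDP1 lies at 0 and 18 summits, a point it shares with NPM1, and PDK1 and PDK3 lie between the dotted lines.

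Sites shared by both lists were counted in the 8 genes and over all peaks. In the RPL22-HaloTag list 6 of 40 peaks overlapped an RPL22L1-HaloTag peak by at least 1 base, or 15% (exact Clopper-Pearson 95% interval 5.71 to 29.8%), against 17.4% of all peaks. In the RPL22L1-HaloTag list it was 6 of 89, or 6.74% (2.51 to 14.1%), against 10.6%. Without PDP1, whose peaks had no RPL22-HaloTag peak to meet, the latter share was 6 of 69, or 8.70% (3.26 to 18.0%). Intervals cover counting error only. PDK3, PDHA1 and PDHB held all of the overlapping peaks. Over all peaks, overlap differed between flat and other peaks. Flat peaks have 30 bases by definition, and the part of peak width in this was not tested. In the RPL22-HaloTag list 5.59% of all flat peaks and 39.2% of all other peaks overlapped, and in the 8 genes 3 of 26 flat and 3 of 14 other peaks did, or 11.5% (2.45 to 30.2%) and 21.4% (4.66 to 50.8%). In the RPL22L1-HaloTag list the shares over all peaks were 6.23% and 26.0%, and in the 8 genes 4 of 52 and 2 of 37 peaks, or 7.69% (2.14 to 18.5%) and 5.41% (0.661 to 18.2%). The last interval lay below the share over all peaks, and 19 of those 37 peaks were in PDP1. Without PDP1 it was 2 of 18, or 11.1% (1.38 to 34.7%). The E1 genes together gave 3 of their 4 RPL22-HaloTag peaks to the overlap, none of the 4 flat, and the 4 kinase genes 3 of 35, of which 26 were flat. Flat peaks made up 65% of the RPL22-HaloTag peaks of the 8 genes, beside 64.9% of the whole list. Of the 26 flat ones 8 had a score of 21, the most frequent score of flat peaks in that list. In the whole list 42715 of 99953 flat peaks had it, a larger share.

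The wider pathway was described by 40 genes, all found in the gene table. The list held 8 genes of the complex and its cofactors, 9 of pyruvate supply and 16 of the citric acid cycle. It also held 5 regulators of PDK transcription, and BCKDK and PPM1K as a related kinase and phosphatase. Of the 40 genes, 39 held an RPL22-HaloTag summit and 38 an RPL22L1-HaloTag summit. The testis gene PDHA2 had none in either list. With at least 10 summits in lists of equal size there were 28 genes, of which 4 had a log2 ratio above 1 and 1 had one below -1, against 6.37% and 8.75% of all genes. Their median log2 ratio was -0.09, and that of all genes 0. The log2 ratio of PDP1 was 4.25, and none of the 28 genes exceeded 1.46. Since PDP1 was picked for this contrast, nothing is read from the distance between these values.

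Within the complex itself the E3 subunit DLD (chromosome 7, 107891107 to 107921198) held 5 RPL22-HaloTag and 26 RPL22L1-HaloTag summits, 14 of the latter in the list of equal size. Its log2 ratio was 1.32, and 4 of the 5 RPL22-HaloTag peaks overlapped. Also 4 of the 5 were not flat, and of all RPL22-HaloTag peaks that were not flat 39.2% overlapped. With 5 peaks nothing is read from this number. PDHX (chromosome 11, 34915920 to 34996128) held 6 and 27, with a log2 ratio of 1.19, though 26 of the 27 were flat. The E2 subunit DLAT (chromosome 11, 112025408 to 112064404) held 14 and 20, and 14 and 14 in lists of equal size. PDPR encodes the regulatory subunit of the pyruvate dehydrogenase phosphatase, the protein partner of PDP1, and was singled out after its values were seen. It held 14 and 14 summits on chromosome 16 (70113626 to 70163427). Its highest RPL22-HaloTag peak, at 70161860 to 70161903, scored 1091, which ranked 646, overlapped an RPL22L1-HaloTag peak and lay also within the bounds of LOC400541. The catalytic subunit PDP1 held 0 and 20 summits and the regulatory subunit 14 and 14. The PDPR gene has 49802 bases against 9146, and only 4 of its 14 RPL22-HaloTag and 3 of its 14 RPL22L1-HaloTag peaks were not flat. In PDP1 19 of 20 were not flat. Since both genes were chosen with their values known, nothing is read from this contrast. PDPR has near copies elsewhere in the genome, and the treatment of reads that match more than 1 place is not given in the sources used here.

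Among the 28 partner genes with at least 10 summits fumarase, FH, had the largest log2 ratio, 1.46, from 3 RPL22-HaloTag and 10 RPL22L1-HaloTag summits in lists of equal size. FOXO1, a transcription factor that raises PDK4, was the remaining gene above 1, with 1.14. Among these genes the largest ratios towards RPL22-HaloTag were -1.10 for PC, the pyruvate carboxylase, -1 for PPARD and -0.85 for ESRRA, both nuclear receptors. No gene of the wider list combined 0 summits in 1 list with 5 or more in the other. The lactate dehydrogenases, also named after their values were seen, held the strongest single peaks. LDHB held an RPL22-HaloTag peak at 21657738 to 21657814 of chromosome 12, with a score of 2395 and rank 374, and LDHA an RPL22L1-HaloTag peak at 18400915 to 18400952 of chromosome 11, with a score of 3170 and rank 483. The LDHB peak overlapped an RPL22L1-HaloTag peak, and the LDHA peak lay 4042 bases from the nearest RPL22-HaloTag peak. The latter ranked above the strongest PDP1 peak, which had rank 737.

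**Figure D4:**
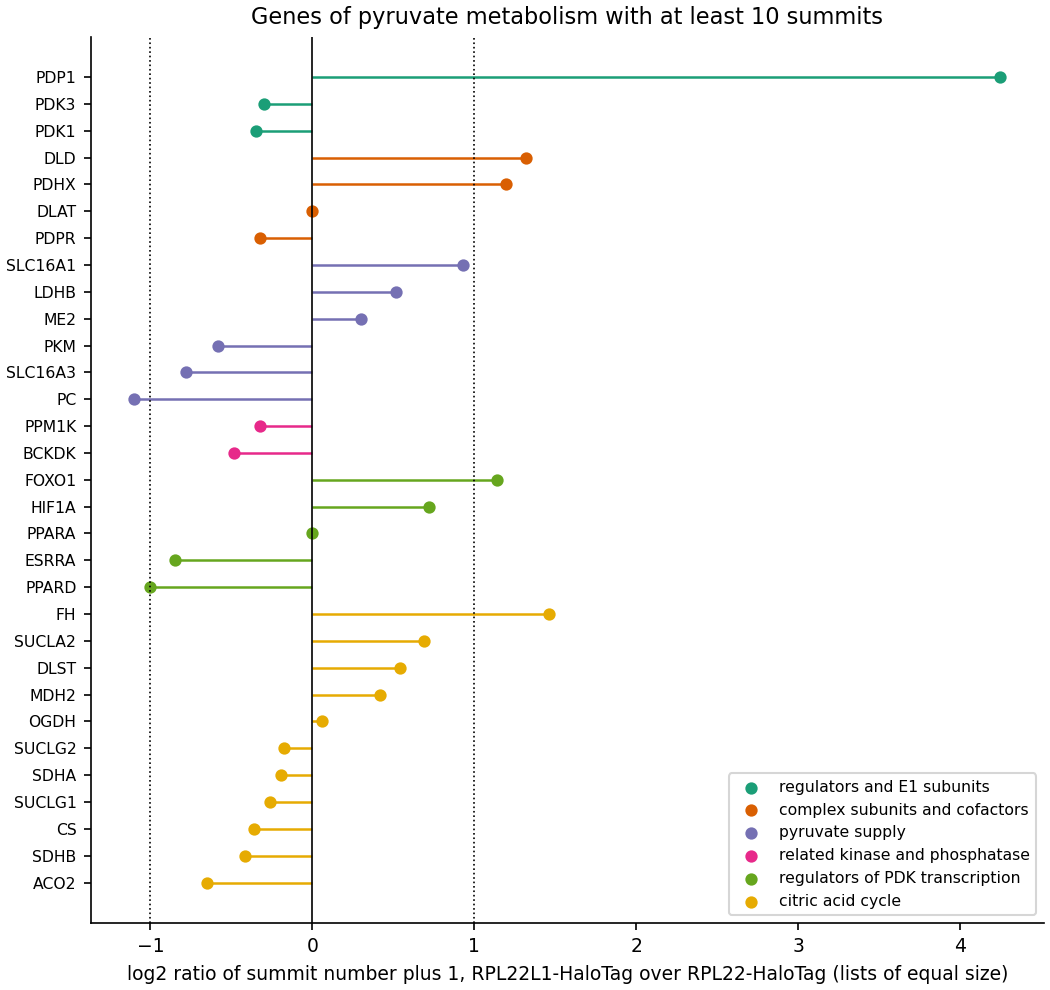
Log2 ratio of summit number plus 1, RPL22L1-HaloTag over RPL22-HaloTag in lists of equal size (horizontal axis), for genes of pyruvate metabolism with at least 10 summits (vertical axis, coloured by group). Dotted lines mark 1 and -1. PDP1, picked for its many RPL22L1-HaloTag and absent RPL22-HaloTag summits, lies at 4.25. The 28 genes of the wider list with at least 10 summits run from -1.10 for PC to 1.46 for FH.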

How the data were processed

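Peaks of 2 of the 3 samples were used, 1 library per group, from deposited lists of 10 columns. The score column is a whole number that the authors gave each peak. Its scale is not stated, and its lowest value was 13 in both lists. Per the submitters' processing notes the build was hg38, and cutadapt 4.8, STAR 2.7.10a, UMI-tools 1.1.5 and MACS3 3.0.0a6 were used, with roles, settings and the control of peak calling not given in the sources used here. No reads or depths were listed.

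The 8 genes and the partner list were chosen with earlier results of these data known. Gene bounds came from RefSeq GRCh38.p14, without contigs outside the chromosomes. Every summit within the bounds was counted. The list of equal size kept all 149971 RPL22L1-HaloTag peaks with scores above 98 and 4029 of 9182 at 98, taken by sequence name and position. A pseudocount of 1, a minimum of 10 summits and a log2 ratio beyond 1 set the calls.

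Named were the 8 genes, their neighbours at PDP1, the genes most like PDP1 in 4 numbers or richest in RPL22L1-HaloTag summits without an RPL22-HaloTag one, and the partner genes of largest ratio. Alternatives covered score limit, flat peaks, list size, bounds, merging, overlap, pseudocount and ties. Counting was checked by direct search in 300 genes and overlap in 200 peaks, with 0 and 0 differences. Tools were matplotlib 3.10.9, scipy 1.17.1, numpy 2.4.6 and pandas 2.3.3 under Python 3.11.15.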

Additional observations from a re-analysis of the deposited data

How the results depend on the processing

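PDP1 held 0 RPL22-HaloTag and 16 to 24 RPL22L1-HaloTag summits under the alternatives run, except that bounds widened by 2000 bases took in 1 RPL22-HaloTag summit. That width, the handling of ties and the equal lists without flat peaks were chosen after the data were seen. The log2 ratio of PDP1 moved with the pseudocount, to 5.21 at 0.5, as it must where 1 number is 0. It was 4.09 to 4.39 in the other settings run for it, and was not computed with widened bounds. When each list kept its peaks from the median score upwards, the 8 genes held 24 RPL22-HaloTag and 50 RPL22L1-HaloTag peaks. Overlap was 4.17% and 2% of these, beside 17.9% and 13.1% of all peaks under the same limit. PDP1, picked for its lack of RPL22-HaloTag summits, held 16 of the 50. No interval and no share without PDP1 was computed at this limit, so nothing is read from the lower shares. The share of all genes with a log2 ratio above 1 became 17.1% with that score limit, 14.8% without flat peaks and 30.7% in whole lists, and the share below -1 became 2.78%, 7.52% and 2.36%. With at least 20 summits the latter was 4.92%. For these shares and overlaps the cause was not tested. Of 147 alternative values for the 7 genes other than PDP1, 104 stayed within 1.5-fold, 13 moved up and 30 moved down. A change of sign was looked for only in log2 ratios above 1 or below -1, and 0 were found. That of PDP1 could not turn, with 0 RPL22-HaloTag summits in each of those settings. The smaller ratios of PDK1 and PDK3 did turn, to 0.15 and 0.29 from the median score upwards and to 0.36 and 0.17 in whole lists. Unknown depth and 1 library per group limit every number.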
